A study of Mus musculus with 12 samples.

Results

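Input chromatin is sheared DNA that is sequenced without immunoprecipitation, and here it was compared between microglia of Nlrp3 knockout and wild-type mice. Of the 12 libraries of the study, 6 were input: 3 labelled wt (wild type) and 3 labelled NLRP3K0 (knockout). The other 6 were H3K27ac chromatin immunoprecipitation (ChIP) libraries of the same 2 genotypes. The members were the 66516 of 67822 deposited windows, each 1000 bp wide, that lay on chromosomes 1 to 19. Their tags (aligned reads) were summed in 15463 genes, by the nearest transcription start site within 100 kb, and in 1952 fixed 1 Mb bins by window start.

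All groups were CD11b-positive cells taken with magnetic beads from dissociated, myelin-depleted forebrain. The wild-type mice had a C57BL/6N background, and the knockout was of Cias1, an older name of Nlrp3, named Nlrp3-/- and credited to Millennium Pharmaceuticals. The labels do not say which background the knockout line had, how old or of which sex the mice were, or whether the replicates of a group were separate animals, so p-values measure the spread between these libraries, which may be technical. The windows were fixed by accessible sites, and DNA elsewhere was not measured. The label microglia was checked in the H3K27ac libraries of wild type: the median gene with a window carried 11.3 tags per window per 1000000 total tags in the list of homeostatic microglia genes (39 of 40 had a window), against 3.66 over all genes. The same median was 0.983 in neuron markers (9 of 20), 0.446 in astrocyte (10 of 15), 1.35 in oligodendrocyte (10 of 15) and 1.68 in endothelial and mural markers (11 of 16). It was 1.98 in markers of monocytes, neutrophils and border macrophages (14 of 18), cells that a CD11b selection can also take.

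As background, input has no antibody, so its tags per window follow the number of copies of a sequence in the genome, how well it shears and amplifies, and how well its reads can be placed. Input is used in ChIP-seq to find loci whose ChIP signal may come from such sources. Loci with more copies in the mice than in the reference genome pile up tags in input and ChIP alike. Mouse major satellite, the repeat at the centromere-proximal heterochromatin, is the best known case.

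Input libraries held 3287009 to 4926821 tags in wild type and 3333947 to 6961590 in the knockout, of which 8.08% to 9.09% lay in windows of chromosomes 1 to 19. The test (edgeR's quasi-likelihood fit, 3 against 3 libraries, scaled by the trimmed mean of M values, TMM, with Benjamini-Hochberg adjustment) had a threshold of 0.05 on the adjusted p, and "called" means past it. It covered 6457 genes and 1737 bins with enough tags. The 9006 genes left out had a median of 27 input tags over the 6 libraries, against 114 for those tested, and the 215 bins left out a median of 28, against 622. Wild-type replicate 1 stood apart: it held 1 tag in windows on chromosome Y, against 43 to 112 in the other 5 input libraries, and its values on chromosome X were the highest. Neither chromosome enters the comparison, and calls that were lost without this library are named where they arise.

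The sequences printed here lie before the start sites of the targeted gene, inside the windows where knockout input was nearly empty. Each run is 250 bases before a start site on the plus strand, from RefSeq on GRCm38.p6, in lower case, with the motif GAGGAA (or TTCCTC, its reverse complement, both strands searched) in capitals. That hexamer is the core of sites bound by PU.1, a myeloid transcription factor. It was found in 23.3% of 32851 promoters of this length.
Nlrp3, upstream start, chr11:59541319-59541568: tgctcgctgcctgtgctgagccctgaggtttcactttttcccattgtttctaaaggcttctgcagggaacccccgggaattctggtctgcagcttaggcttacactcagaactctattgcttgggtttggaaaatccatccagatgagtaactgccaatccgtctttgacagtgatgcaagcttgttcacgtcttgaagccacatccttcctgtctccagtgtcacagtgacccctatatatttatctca
Nlrp3, downstream start, chr11:59542436-59542685: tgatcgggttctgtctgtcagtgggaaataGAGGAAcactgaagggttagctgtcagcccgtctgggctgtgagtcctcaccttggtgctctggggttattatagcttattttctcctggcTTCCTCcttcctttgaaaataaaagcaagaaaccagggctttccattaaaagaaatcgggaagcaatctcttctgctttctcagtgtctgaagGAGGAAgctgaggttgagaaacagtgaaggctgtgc
The downstream Nlrp3 start held 3 matches, and the upstream one held 0. A match of letters is a description and no sign of binding, and the mice may differ from this reference.

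Nlrp3, on chromosome 11 (59541569 to 59566955 on GRCm38), encodes the sensor protein of an inflammasome, the complex that turns on caspase-1, and is the targeted gene. Over its 8 windows input was 44, 42 and 26 tags in wild type against 31, 23 and 20 in the knockout, a log2 fold change (knockout over wild type) of -0.55 (SE 0.26, edgeR adjusted p = 0.933, not called). The loss was local. In the 3 windows within 2 kb of a start site, input was 23, 19 and 7 tags in wild type against 2, 1 and 2 in the knockout, and the ratio per total tags was 0.0907 (exact 95% interval 0.0282 to 0.226, counting error only). On this scale the windows outside the most over-represented ones stood at 0.872, which is the value to read such ratios against. All 3 knockout libraries were below all 3 wild-type libraries there in tags. The 5 windows farther out held 21, 23 and 19 tags in wild type against 29, 22 and 18 in the knockout, a ratio of 0.973 (0.682 to 1.39). This split of the windows was made with the values known and has no test. The window at the downstream start (59542134 to 59543134) held 0 tags in every knockout library against 18 in wild type. Its ratio per total tags had an upper limit of 0.202 (exact 95% interval, counting error only). H3K27ac in the 3 inner windows was 393, 321 and 356 tags in wild type against 45, 72 and 80 in the knockout, and over the gene it fell by 1.65 (log2, edgeR adjusted p = 1.58e-06).

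**Figure D1:**
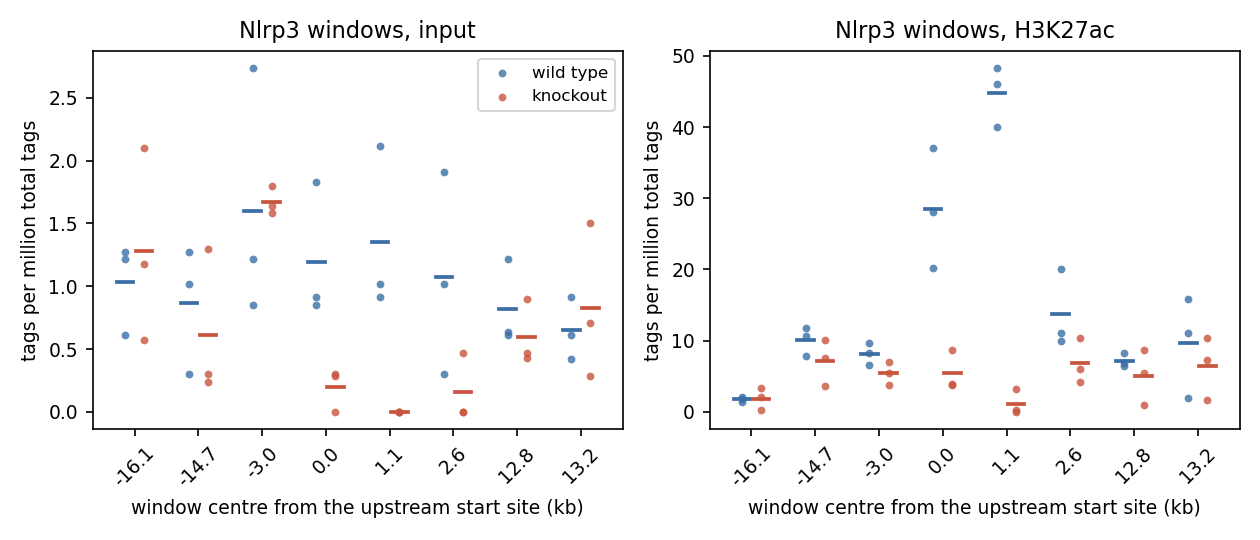
Input (left) and H3K27ac (right) tags per 1000000 total tags in the 8 windows of Nlrp3, in chromosome order by the distance of the window centre from the upstream start site (kb); points are the 3 libraries of a genotype and bars their mean. The 3 windows from 0.0 to 2.6 kb hold 49 input tags in wild type and 5 in the knockout, while the other 5 hold 63 and 69.

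At the level of 1 Mb bins, input was called different in 13 of 1737 bins (0.748%), 11 higher (0.633%) and 2 lower (0.115%) in the knockout, and 104 bins had an unadjusted p under 0.05 (5.99%). The lower ones were on chromosomes 13 and 1. Of the 11 higher ones, 6 had 88.4% to 100% of their input tags in over-represented satellite windows, and the other 5 lay on chromosomes 1, 6, 8, 11 and 17. Most bins were alike within the precision of the test: in 94.3% of bins (1638) the 95% interval of the difference lay inside a 2-fold change, and in 1303 bins inside a 1.5-fold change. The median SE was 0.144 on the log2 scale. Scaling by the total tags of each library in place of TMM moved the median of all bins to -0.18 and of all genes to -0.20, and it called 68 bins, 2 higher and 66 lower. The log2 values given here are therefore relative to the median bin or gene, and ratios per total tags are to be read against 0.872. The 11 higher bins and 6 higher genes kept a positive value under that scaling too, but 9 of those bins and 5 of those genes were then not called.

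**Figure D2:**
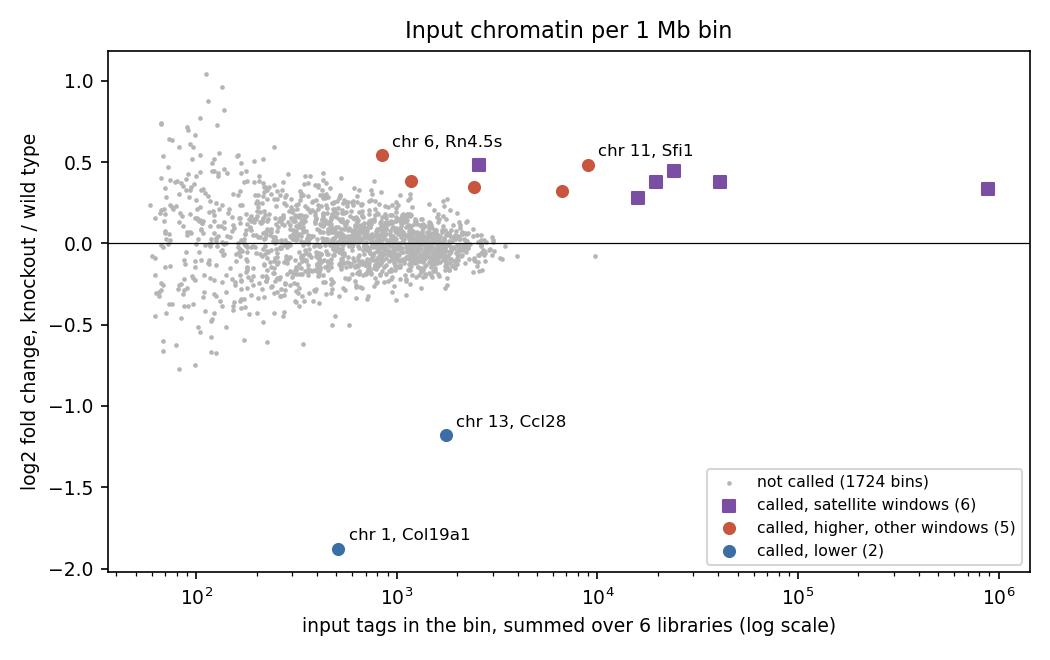
Each point is a 1 Mb bin: input tags summed over the 6 libraries (x axis, log scale) against the log2 fold change of knockout over wild type (y axis). Colours mark the 13 called bins, of which the lowest are the chromosome 13 bin at -1.18 and the chromosome 1 bin at -1.88.

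Per gene, 9 of 6457 were called (0.139%), 6 higher (0.0929%) and 3 lower (0.0465%), and 335 genes had an unadjusted p under 0.05 (5.19%). The 3 lower genes were Tmem267, Col19a1 and Ccl28. The 6 higher ones were Rn4.5s, Pla2g12a, Irf2bp2, 6430706D22Rik, Sfi1 and Mir101c. All 9 had groups that did not overlap, as had 664 genes in all (10.3%). DESeq2 called 5 genes and 11 bins. The interval of the difference lay inside a 2-fold change for 65.6% of genes (4233).

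**Figure D3:**
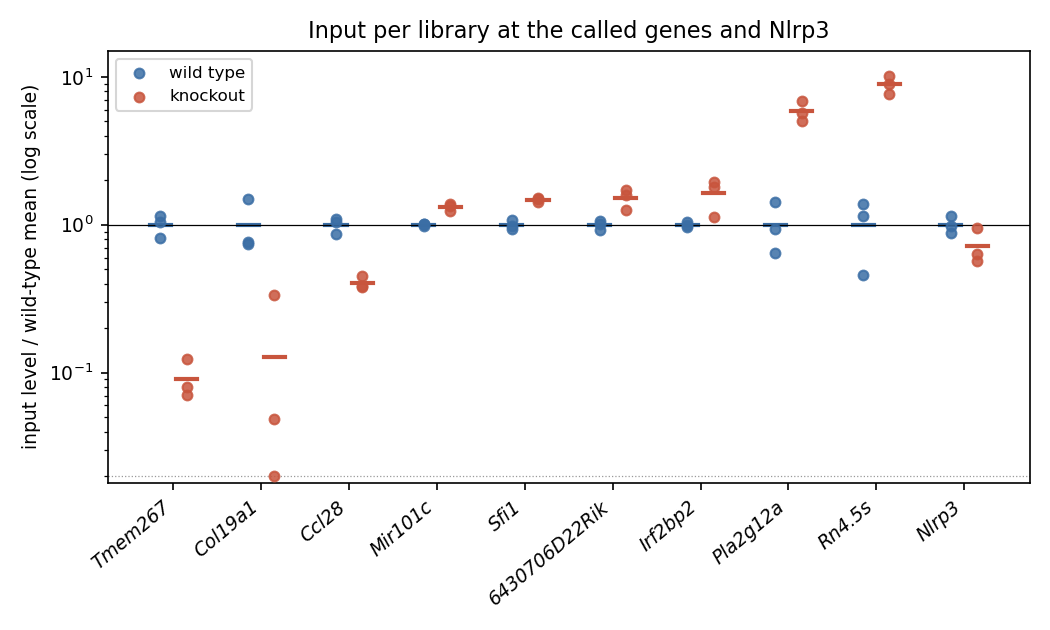
Input level of each library (CPM, tags of the gene per 1000000 tags of the tested genes after TMM) divided by the mean of the 3 wild-type libraries, on a log scale, for the 9 called genes and Nlrp3; bars are group means. A library with 0 tags (knockout replicate 2 at Col19a1) is drawn on the dotted line at 0.02. The knockout points lie below 1 for the 3 lower genes and above it for the 6 higher genes.

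The clearest loss of input was a stretch of chromosome 13. The 17 windows given to Ccl28, a chemokine of mucosal tissues, held 375, 396 and 228 input tags in wild type against 184, 96 and 107 in the knockout. The level fell from 1852 ± 215 to 748 ± 72.8 CPM (SD, n = 3 each), by 1.33 (log2, SE 0.12, edgeR adjusted p = 5.8e-12). Every one of the 17 windows was lower in the knockout per total tags. They span 119596577 to 119617866 and end before the Ccl28 start: by the deposited annotation they are in the last part of Tmem267, around its end, and in the intergenic stretch beyond, so none covers Ccl28 itself (119623819 to 119654359). Of these windows 13 were in the wild-type site list alone and 4 in both lists. Wild-type input there was 5.50 times the median gene per window, and knockout input 2.21 times.

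The windows at the start of Tmem267, a gene for a predicted membrane protein (119488086 to 119610459), showed the same direction. The 3 windows held 23, 18 and 16 tags in wild type against 2, 1 and 2 in the knockout, which fell by 3.41 (log2, SE 0.57, edgeR adjusted p = 1.59e-04). The intronic window at 119491724 to 119492724 held 30 tags in wild type and 0 in the knockout. Its ratio per total tags had an upper limit of 0.116 (exact 95% interval, counting error only). The first of the 3 windows, upstream of most of the gene, held 4 and 3. Without wild-type replicate 1 the Tmem267 call was lost (adjusted p = 0.106), although the value was -3.28. The loss was not shared by the whole bin, though where it begins and ends was not resolved, as no window lay between 119492724 and 119596577. The next window with a gene before it, that of 4833420G17Rik (119462213 to 119463213), held 18 tags in wild type and 22 in the knockout, a ratio per total tags of 1.09 (exact 95% interval 0.556 to 2.15). The next after it, those of Hmgcs1 (119689670 to 119713709), an enzyme of ketone and sterol synthesis, held 21 and 23, a ratio of 0.973 (0.515 to 1.85), with its 2 windows moving in opposite directions. Over the 8 genes of the bin other than Ccl28 and Tmem267 the ratios ran from 0.571 (Nim1k) to 1.48 (Nnt), 5 below 0.872 and 3 above it, and all 8 intervals held 0.872. Nnt, the mitochondrial transhydrogenase that carries a known deletion in C57BL/6J, had 1 window with 3, 0 and 0 tags in wild type against 4, 0 and 1 in the knockout, too few for the test.

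**Figure D4:**
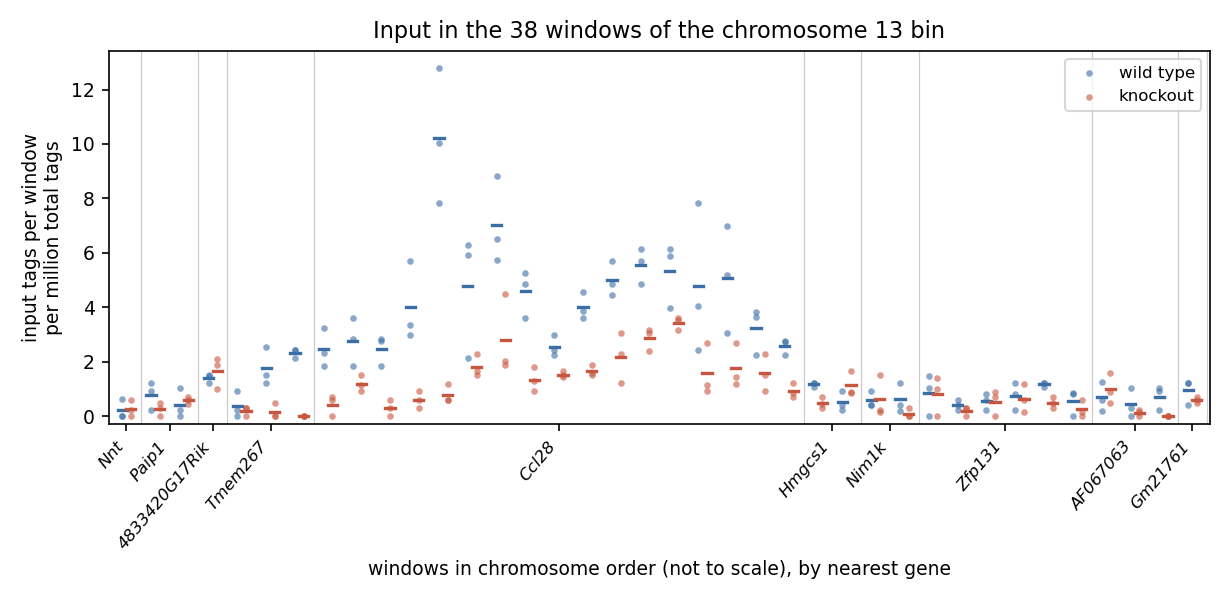
Input tags per 1000000 total tags in each of the 38 windows of the chromosome 13 bin that holds Ccl28, in chromosome order but not to scale, with the nearest gene on the x axis; points are the 3 libraries of a genotype and bars their mean. The wild-type mean is above the knockout mean in all 17 windows of Ccl28, while the window of 4833420G17Rik and the 2 of Hmgcs1 show no shared direction.

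Within the Ccl28 windows the loss was uneven. The ratio of knockout to wild type per total tags ran from 0.0735 (0.0358 to 0.136) at 119601616 to 119602616, with 133 tags in wild type and 11 in the knockout, to 0.613 (0.417 to 0.895) at 119614593 to 119615593, with 71 and 49 tags. The bin as a whole held 448, 484 and 288 tags in wild type against 247, 129 and 155 in the knockout, and fell by 1.18 (log2, SE 0.09, edgeR adjusted p = 8.56e-36). It remained called in all 12 alternatives that could be run on it, between -1.36 and -1.08.

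The lowest bin value was on chromosome 1, 24 to 25 Mb, which fell by 1.88 (log2, SE 0.17, edgeR adjusted p = 4.05e-24). It rested on 2 overlapping windows with identical counts, 24612254 to 24613617, named for Col19a1, a collagen gene that lies outside them (24257683 to 24587922). Their sum was 176, 96 and 68 tags in wild type against 8, 0 and 32 in the knockout, so each tag counts 2 times in it. Col19a1 fell by 3.03 (log2, SE 0.33, edgeR adjusted p = 9.71e-10). Knockout replicate 3 was several-fold above the other knockout libraries but below every wild-type library. DESeq2 gave -2.96 with an adjusted p of 1.00, so this call depends on the tool. The value was -4.87 without knockout replicate 3 and -2.43 without knockout replicate 1, called in both cases. RefSeq lists the pseudogene Gm10222 at 24612404 to 24612700 in these windows and Gm10925, with mt-Atp6 among its synonyms, at 24613971 to 24614651, both on GRCm38. Copies of mitochondrial DNA in the nuclear genome share reads with mitochondrial DNA itself, so the source of these tags is uncertain, and the share of mitochondrial DNA in each library was not analysed here. Both windows were in the wild-type site list alone, and every H3K27ac library held 0 tags in them. Of the other genes of the bin, Lmbrd1 held 26 input tags in wild type and 38 in the knockout, a ratio per total tags of 1.30 (0.768 to 2.23). Col9a1, also a collagen gene, held 13 and 4, a ratio of 0.273 (0.0649 to 0.885). The intervals of all 4 other genes held 0.872.

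The gain with the highest fold was in windows named for Rn4.5s, a gene of the small 4.5S RNA, which mice carry in many tandem copies. Its 8 windows on chromosome 6, 47646340 to 47651723, held 12, 11 and 3 input tags in wild type against 93, 48 and 71 in the knockout. The level rose from 46.4 ± 22.6 to 414 ± 58.9 CPM (SD, n = 3 each), by 3.05 (log2, SE 0.28, edgeR adjusted p = 5.8e-12). All 8 windows were higher in the knockout. Of them 6 were in the knockout site list alone and 2 in both. They do not cover Rn4.5s itself (47654921 to 47655094), and the nearest window centre was 3871 bp from its start. The window at 47650268 to 47651268 is annotated as a 4.5S RNA repeat, and the others are not. Per window, wild-type input was 0.293 times the median gene and knockout input 2.60 times. The gene was called in all 14 alternatives. Over the 11 other genes of the bin the ratio per total tags ran from 0.502 (Ezh2, a histone methyltransferase, with 23 tags in wild type and 13 in the knockout) to 2.37 (Zfp783, with 3 and 8), 6 above 0.872 and 5 below it. For 9 of the 11 the interval held 0.872, and for Mir704 (0.559) and Zfp282 (0.508) it lay below. The bin, 47 to 48 Mb, rose by 0.54 (log2, SE 0.12, edgeR adjusted p = 1.69e-03), and was not called without windows that overlap another (0.28).

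Sfi1, a centrosome protein gene on chromosome 11 (3131850 to 3203347), held 1035, 1036 and 680 input tags in wild type against 1918, 890 and 1169 in the knockout over 24 windows. It rose by 0.56 (log2, SE 0.08, edgeR adjusted p = 1.09e-05), from 5137 ± 396 to 7597 ± 253 CPM (SD, n = 3 each). Its windows were deep in both genotypes, at 10.8 and 15.9 times the median gene. The value was 0.36 under scaling by total tags, with an adjusted p of 0.0816. Its bin, 3 to 4 Mb, rose by 0.49 (SE 0.07) and remained called in all 12 alternatives.

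The other gains were less stable. Pla2g12a, a secreted phospholipase gene on chromosome 3 (129878606 to 129895825), held 4, 2 and 2 tags in wild type against 20, 12 and 13 in the knockout, and rose by 2.47 (log2, SE 0.56, edgeR adjusted p = 0.034). Its call was lost in 10 of 14 alternatives, among them leaving out any 1 of the 6 libraries, with adjusted p between 0.143 and 0.679. Irf2bp2, a transcriptional corepressor gene on chromosome 8 (126588296 to 126593986), held 102, 115 and 83 tags in wild type against 268, 127 and 96 in the knockout, and rose by 0.71 (log2, SE 0.15, edgeR adjusted p = 0.0139). That call was lost when any wild-type library, or knockout library 1 or 2, was left out, with adjusted p between 0.0616 and 0.694. The 30 windows of 6430706D22Rik held 187, 180 and 135 tags in wild type against 312, 187 and 227 in the knockout. RefSeq lists this name as a synonym of Hjurp, the gene of the chaperone of the centromeric histone. The deposited annotation has Hjurp as a separate nearest gene, so windows nearest the Hjurp start are not in this sum. 6430706D22Rik rose by 0.59 (log2, SE 0.13, edgeR adjusted p = 0.0139), and the call was lost when library 2 or 3 of either genotype was left out, with adjusted p between 0.0746 and 0.323.

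Among the bins, chromosome 1 at 88 to 89 Mb, which holds 6430706D22Rik and Hjurp, rose by 0.32 (log2, SE 0.07, edgeR adjusted p = 4.26e-04), and was lost without wild-type replicate 2 (adjusted p = 0.125). Chromosome 8 at 126 to 127 Mb, which holds Irf2bp2, rose by 0.35 (log2, SE 0.08, edgeR adjusted p = 1.9e-03). There knockout replicates 1 and 2 were at 1.38 and 1.51 times the median bin, while replicate 3, at 0.912, was below the wild-type range of 0.970 to 1.06. This call was lost when library 1 of wild type, or 1 or 2 of the knockout, was left out, with adjusted p between 0.0701 and 0.606. Chromosome 17 at 13 to 14 Mb rose by 0.38 (log2, SE 0.10, edgeR adjusted p = 0.0246). Its call was lost when library 1 or 3 of wild type, or any 1 of the knockout, was left out, with adjusted p between 0.0517 and 0.289.

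Satellite windows took a larger part of knockout input. Windows with more than 20 times the median summed input numbered 44: 32 on satellite repeats, 10 on Rn45s, the ribosomal RNA precursor gene, and 2 near Ly6c2, a surface antigen gene. Together they held 38.8%, 39.5% and 38.6% of the window tags in wild type against 44.7%, 46.1% and 43.1% in the knockout, a gap of 5.65 percentage points without overlap (exact permutation p = 0.1, two-sided, the smallest that 3 against 3 allows). For each 1000 tags in the other windows, satellite windows held 630 ± 13.4 in wild type and 798 ± 50.4 in the knockout (SD, n = 3 each, exact permutation p = 0.1, adjusted 0.2). Rn45s windows held 7.18 ± 0.71 and 6.77 ± 1.33, with overlap (exact permutation p = 0.7, n = 3 each).

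The scale decides what the satellite gap is a gap of. Per 1000000 total tags, satellite windows held 33780 ± 1830 in wild type and 37309 ± 2581 in the knockout, which overlapped (ratio 1.10, exact permutation p = 0.3, n = 3 each). All other windows held 53592 ± 2632 and 46743 ± 2015, without overlap (ratio 0.872, exact permutation p = 0.1, adjusted 0.2). Satellite windows were thus higher and the other windows lower in the knockout, and only the other windows had groups without overlap. Overlap among 3 libraries per group does not decide which side moved. The ratio was 0.868 for windows in both site lists, 0.881 for those in the wild-type list alone and 0.899 for those in the knockout list alone. Differences between libraries in preparation and differences by genotype cannot be told apart here. In the H3K27ac libraries, where the same windows were read after immunoprecipitation, satellite windows held 3.11% of window tags in wild type and 3.20% in the knockout.

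The 6 called satellite bins lay on chromosomes 2 (98 to 99 Mb), 6 (103 to 104 Mb), 9 (2 to 3, 3 to 4 and 35 to 36 Mb) and 14 (19 to 20 Mb), and rose by 0.28 to 0.48 on the log2 scale. On chromosome 6 a single window held 3581, 4089 and 2668 tags in wild type against 6707, 3274 and 3874 in the knockout, 1003 and 1359 times the median bin per window. It rose by 0.45 (log2, SE 0.07, edgeR adjusted p = 2.77e-09). The chromosome 2 windows held 102638 to 155451 tags in wild type and 114653 to 245476 in the knockout, the deepest of any bin tested, and rose by 0.34 (log2, SE 0.07, edgeR adjusted p = 1.09e-04). That call was lost without wild-type replicate 1 (adjusted p = 0.131), and the chromosome 9 bin at 35 to 36 Mb (0.28) was lost when library 1 of wild type or 2 of the knockout was left out (adjusted p = 0.0956 and 0.0596). Without over-represented windows the chromosome 14 bin was at -0.05, and the chromosome 9 bin at 35 to 36 Mb at 0.12, neither called. The chromosome 9 bin at 3 to 4 Mb was still called there, at 0.41 (edgeR adjusted p = 1.69e-04), as was Mir101c, at 0.42 (edgeR adjusted p = 6.26e-03). The Mir101c windows left in were still annotated as satellite, apart from that at 3037687 to 3038687, so this setting did not remove the satellite there. Mir101c, the microRNA gene nearest to the satellite at the start of chromosome 9, rose by 0.40 (log2, SE 0.07, edgeR adjusted p = 1.59e-04) through satellite windows, and its name says nothing of the microRNA.

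H3K27ac was then set beside input at the same loci, fitted in the same way on the 6 ChIP libraries. Of the 9 called genes 8 had enough H3K27ac tags, 7 of them had the same sign in both assays, and none was called in both. Ccl28 was lower by 1.24 in H3K27ac, with 96, 193 and 142 tags in wild type against 74, 92 and 47 in the knockout (value -1.24, SE 0.29, edgeR adjusted p = 0.0927). Rn4.5s had a value of 1.62 (SE 0.46, edgeR adjusted p = 0.268), and Tmem267 -2.12 (SE 0.82, edgeR adjusted p = 0.692). DESeq2 called Ccl28 in H3K27ac (adjusted p = 0.0199). For Irf2bp2, Sfi1 and Mir101c the H3K27ac values were 0.16, 0.30 and 0.08, and for 6430706D22Rik -0.34. For comparison, 26 of 11862 genes were called in H3K27ac (0.219%), and the correlation of the fold changes of the 2 assays, across genes tested in both, was 0.048, genes not being independent replicates.

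**Figure D5:**
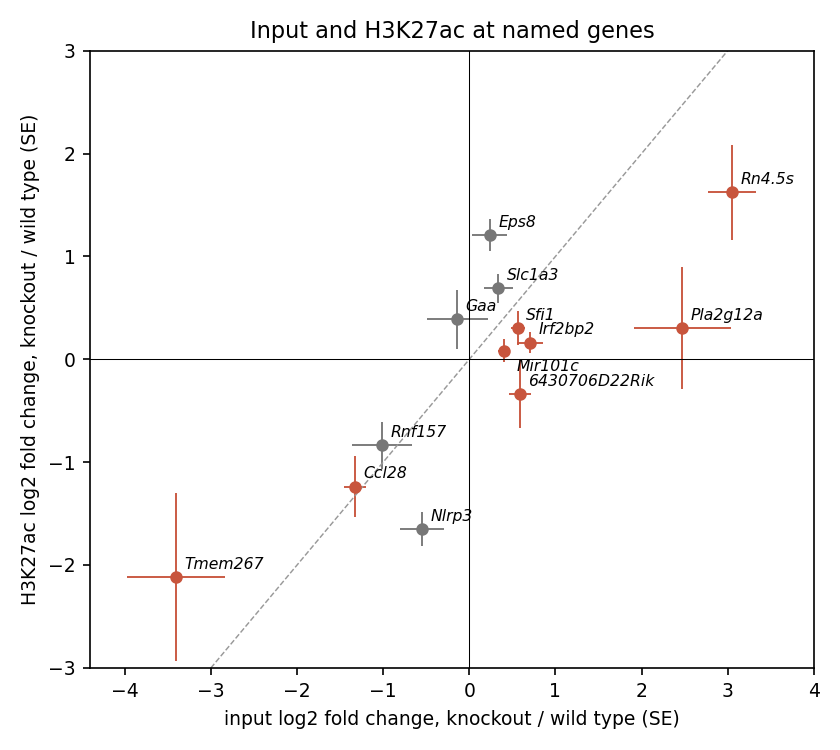
Log2 fold change of knockout over wild type in input (x axis) and H3K27ac (y axis), with SE bars, for the called genes tested in both assays (red) and 5 fixed genes (grey); the dashed line marks equal change. Values are sums over all windows of a gene. Ccl28 lies on the line at -1.33 and -1.24, whereas Nlrp3 and Eps8 lie off it. The difference between assays was called for neither (edgeR adjusted p = 0.465 for Nlrp3 and 0.463 for Eps8). The Nlrp3 sum joins the 3 windows near its start sites, which were lower in the knockout in both assays, with 5 windows farther out.

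The difference of the differences, H3K27ac minus input, was tested over all 12 libraries. No gene of 6347 was called (0%; edgeR, 320 at an unadjusted p under 0.05, 5.04%), while DESeq2 called 4. Of 1734 bins 4 were called (0.231%). These sums do not compare the assays at the same windows, since the windows that carry the input change hold only part, or none, of the H3K27ac tags of their bin. On chromosome 1 at 24 to 25 Mb the difference was 1.84 (edgeR adjusted p = 7.41e-04), with H3K27ac at -0.02, but the Col19a1 windows held 0 H3K27ac tags and that value came from the other genes. In the chromosome 13 bin of Ccl28 it was 0.82 (edgeR adjusted p = 2.18e-03), with H3K27ac at -0.35, while for the windows given to Ccl28 the difference was 0.09 (edgeR adjusted p = 0.985). On chromosome 6 at 47 to 48 Mb it was -0.68 (edgeR adjusted p = 0.0402), with H3K27ac at -0.13, and for the windows given to Rn4.5s -1.46 (edgeR adjusted p = 0.813).

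The reverse question is whether genes called in H3K27ac moved in input. Of those 26 genes, 25 were tested in input and 0 were called by edgeR, while 5 (20%) had an unadjusted interval that excluded 0, against 5.19% of all genes at an unadjusted p under 0.05. Those 5 were Nlrp3, Zfp467, Mir3086, 2210417A02Rik and Slc1a3, named after their values were seen, and all 5 had the same sign in both assays. The test of the difference between assays called 0 of the 25 (edgeR, smallest adjusted p = 0.134). That test therefore did not exclude a change in input of the size seen in H3K27ac. For 20 of the 25, however, the unadjusted interval of the input value did not hold the H3K27ac value. Those intervals carry the error of the input value but not that of the H3K27ac value. Eps8, an actin regulator, rose by 1.21 in H3K27ac (edgeR adjusted p = 5.45e-05), whereas its input was 53, 65 and 45 tags in wild type against 103, 57 and 31 in the knockout, a value of 0.24 (SE 0.20, edgeR adjusted p = 0.974). Slc1a3, a glutamate transporter, rose by 0.69 in H3K27ac (edgeR adjusted p = 0.0203), a call lost in 7 of 10 alternatives, and its input value was 0.34 (SE 0.16, edgeR adjusted p = 0.933), with groups that overlapped. Rnf157, a ubiquitin ligase gene, had -0.84 in H3K27ac (edgeR adjusted p = 0.22) and -1.01 in input (SE 0.35, edgeR adjusted p = 0.654), and Gaa, acid alpha-glucosidase, 0.39 and -0.14, none of them called.

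Around Nlrp3 the 1 Mb bins were flat in input. Of the 10 bins from 54 to 64 Mb on chromosome 11, 9 were tested, 0 were called by edgeR and 0 had an unadjusted p under 0.05, with values from -0.09 to 0.08. The bin of Nlrp3 itself, which starts at 59 Mb, was among them at -0.06. Bins of this size thus did not show the loss at the start sites, and a loss of that length in the flanks could be missed too. Whole chromosomes were flat too: among 19 shares of window tags, with over-represented windows left out, only chromosome 11 had groups that did not overlap, at 8.55% ± 0.04 in wild type and 8.66% ± 0.05 in the knockout (SD, n = 3 each, exact permutation p = 0.1, adjusted 0.864).

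Gene groups of the tissue were set against this background of 0.139%. In the list of 18 tested genes of the inflammasome and IL-1, 23 of glutamine and glutamate metabolism, and 38 of homeostatic microglia, 0 were called by edgeR (3, 1 and 3 at an unadjusted p under 0.05, which is 16.7%, 4.35% and 7.89% against 5.19% of all genes), and their median values were 0.05, 0.01 and -0.10, against -0.01 over all genes tested. Their smallest p belonged to Il1r1, an IL-1 receptor (-0.72, SE 0.31, edgeR adjusted p = 0.904), to Slc1a3, and to Itgam, the CD11b gene used for sorting (-0.55, SE 0.21, edgeR adjusted p = 0.759). The lists of neuron, astrocyte, oligodendrocyte, endothelial and mural, and monocyte, neutrophil and border macrophage markers had 3, 3, 6, 7 and 5 tested genes, of which 0 were called by edgeR and 1 (Slc1a3) had an unadjusted p under 0.05. Their lead genes by p were Rbfox3 (-0.67), Slc1a3 (0.34), Mbp (-0.25), Cdh5 (0.64) and Stab1 (0.50), none past the threshold. In the list of genes known to vary in copy number or to be multicopy in laboratory mice, 30 of 75 had a window and 11 were tested: Ccl28 was lower, Sfi1 was higher, and the median was 0.02. That list was written with earlier results of these data known and is not independent evidence. Below the called genes, the lower direction was filled by Tspan4, a tetraspanin (-1.37, SE 0.39, edgeR adjusted p = 0.367), and Itgb3, an integrin (-0.78, SE 0.22, edgeR adjusted p = 0.374).

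Input also varied with sequence, alike in both genotypes. Per window, relative to intergenic windows, CpG islands stood at 0.814 ± 0.031 in wild type and 0.809 ± 0.021 in the knockout, and promoters at 0.962 ± 0.016 and 0.949 ± 0.005 (SD, n = 3 each). In 8361 promoter windows matched to RefSeq, input relative to their mean fell from 1.18 in the quartile with the lowest GC content to 0.805 in the quartile with the highest in wild type, and from 1.17 to 0.811 in the knockout. Of 14 window classes, SINE repeats (1.06 in wild type, 1.10 in the knockout) and 3′ untranslated regions (0.984 and 0.957) had groups that did not overlap (exact permutation p = 0.1, adjusted 0.4, n = 3 each).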

How the data were processed

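Tag counts were deposited by the authors as whole numbers, 1 per library and window; per the file headers they were made with HOMER's annotatePeaks.pl on mm10 in windows of 1000 bp, unadjusted. HOMER, DESeq2 and mm10 are listed, per the submitters' processing notes, with aligner, treatment of duplicates and versions not given in the sources used here. Samples were grouped by their titles. Counts on chromosomes 1 to 19 were summed per gene and per 1 Mb bin and tested with edgeR 4.0.16 (R 4.3.3; TMM, filterByExpr, quasi-likelihood, no covariate, Benjamini-Hochberg 0.05). SE was taken as the log2 fold change divided by the root of F. Shares were compared by exact permutation over libraries. No pair of replicates agreed within sampling noise. Scripts were tested on simulated counts. Alternatives were total-tag scaling, DESeq2 1.42.0, other filters, windows, distances and bins, a replicate block, and each library left out. Overlapping windows (12330) share tags. Exact intervals of ratios cover counting error only, while intervals of log2 differences come from the edgeR SE and include the spread between libraries. A second table, scaled by the authors, was not used. Members, lists and tests were chosen with earlier results of these data known. Named were every called bin, called genes up to 10 per direction (filled to 5 by smallest p), 7 fixed genes and, per list, called genes or the smallest p.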

Additional observations from a re-analysis of the deposited data

Results flagged for a closer look

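Summed over all windows of a bin, the change with genotype differed between H3K27ac and input in 4 bins, by the test of that difference over 12 libraries. They were chromosome 1 at 24 to 25 Mb (H3K27ac minus input 1.84), the chromosome 13 bin of Ccl28 (0.82), chromosome 12 at 17 to 18 Mb (1.00) and chromosome 6 at 47 to 48 Mb (-0.68). In the first and second of these, and in the last, the sums do not compare the same windows: the Col19a1 windows hold 0 H3K27ac tags, and for Ccl28 and Rn4.5s alone the difference was not called. The chromosome 12 bin, which holds Odc1 (ornithine decarboxylase), was called in neither assay alone: input was 91, 121 and 69 tags in wild type against 117, 37 and 54 in the knockout (value -0.44, edgeR adjusted p = 0.375), and H3K27ac was 248, 280 and 313 against 468, 525 and 439 (value 0.55, edgeR adjusted p = 0.0891).

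Outside chromosomes 1 to 19, an unplaced scaffold with 114 windows held 762, 811 and 853 input tags per 1000000 in wild type against 996, 941 and 936 in the knockout, a mean of 809 against 958 (exact permutation p = 0.1, adjusted over 11 sequences 0.413, n = 3 each). Chromosome X held 857, 769 and 737 in wild type against 706, 699 and 696 in the knockout, and replicate 1 of wild type, the library almost without chromosome Y tags, was the highest.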

How the results depend on the processing

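Input calls per gene (9) numbered 4 with total-tag scaling, 5 with DESeq2 and 4 with genes limited to windows within 10 kb of a start site. They ranged from 6 to 8 when a library was left out. Input calls per bin (13) numbered 68 with total-tag scaling, of which 4 were shared, and 8 without over-represented windows, where the chromosome 14 bin at 19 to 20 Mb reversed to -0.045. They ranged from 9 to 13 when a library was left out. H3K27ac calls per gene (26) numbered 13 with the replicate block and 10 to 17 without a library, and per bin (10) numbered 4 with total-tag scaling and 4 to 12 without a library. The difference between assays per gene (0) had 1 call with the replicate block and 4 with DESeq2. The chromosome 6 difference (47 to 48 Mb) had an adjusted p of 0.0522 without over-represented windows. With all windows kept, 18 chromosome shares had groups without overlap, against 1, and 0 to 3 without a library; for window classes the range was 1 to 4, against 2. Apart from the total-tag shift and removal of windows, the causes were not tested. Replicate numbers were shared between genotypes, but same-numbered libraries did not deviate together (r of -0.01, 0.04 and -0.01, with own number highest in 1 of 3); the block gave 11 input genes and 13 input bins. Depth limits the gene level: the interval lay inside a 1.5-fold change for 14.2% of genes.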
